A study of Homo sapiens with 4 samples.

Results

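Aminoacyl-tRNA synthetases are the enzymes that load each amino acid onto its tRNA. The 36 genes described here encode such enzymes, and they were taken by symbol from a list of 20 genes for the cytosolic enzymes and 16 genes, marked by the suffix 2, for the mitochondrial ones. All 36 symbols had a row among the 23228 genes counted. Transcripts were measured by RNA sequencing in Daoy, an established human medulloblastoma cell line. There were 2 libraries from Daoy cells with a stably integrated lentiviral shRNA against PELP1 and 2 from Daoy cells with a stably integrated control shRNA. The PELP1 protein is a coregulator of nuclear receptors and also takes part in ribosome maturation. The labels do not give the number of shRNA sequences used, nor whether the cells were a pool or 1 clone.

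Cytosolic synthetases supply the ribosomes that translate nuclear messages, and the mitochondrial ones supply the separate ribosomes inside the organelle. Both sets are made from nuclear genes, mostly as separate genes for the same amino acid. GARS and KARS are exceptions, since each encodes both forms. Several cytosolic enzymes sit together in a multisynthetase complex held by the scaffold proteins AIMP1, AIMP2 and EEF1E1. Many cytosolic synthetase genes are transcribed more when amino acids run short, through the transcription factor ATF4, which binds composite C/EBP-ATF elements in DNA.

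One form of that element, TGATGCAA, was searched for in RefSeq promoter windows (build GRCh38.p14), which run from 250 bases before each gene's start to 50 bases after it. Of the 36 genes, 30 had a window. DARS, LARS, VARS, YARS, AARS2 and VARS2 had none. The 8 letters were found on either strand in 6 of 16 cytosolic windows and in 0 of 14 mitochondrial windows, against 0.669% of 15842 windows of protein-coding genes. The 6 sites are shown because they separate the genes that are discussed at the end of the comparison. Each line gives 30 bases, 5′ to 3′ on the strand that reads TGATGCAA, with those letters in capitals.
AARS, chr16:70289675-70289704, plus strand: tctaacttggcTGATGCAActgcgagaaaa
CARS, chr11:3057407-3057436, plus strand: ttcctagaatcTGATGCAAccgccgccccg
IARS, chr9:92293692-92293721, plus strand: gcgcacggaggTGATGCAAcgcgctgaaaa
MARS, chr12:57488053-57488082, minus strand: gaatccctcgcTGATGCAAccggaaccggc
NARS, chr18:57621804-57621833, minus strand: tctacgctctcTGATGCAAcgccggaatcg
TARS, chr5:33440956-33440985, minus strand: gctggaccagcTGATGCAAtcgaaaggcgc
Counted along each gene from its start at 0, the letters ran from −187 to −180 in AARS and from −13 to −6 in IARS. They spanned the start in CARS and MARS. In TARS they began at 2 and in NARS at 14. A match of letters is a description of the window and not a measured binding site.

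The libraries held from 24052542 to 29221640 counts in genes. PELP1 itself stood at 55.58 and 49.71 CPM (a gene's share of its library's counts, scaled by the TMM method) in PELP1 shRNA libraries, against 168.2 and 185.2 CPM in control shRNA libraries, so its transcripts were at 29.8% of the control level. Of 14972 genes tested with edgeR's quasi-likelihood test, 58.1% passed a false discovery rate (FDR) of 0.05, and of all genes tested 28.6% were higher and 29.5% lower with the PELP1 shRNA. Among genes called, 49.1% were higher with TMM scaling. With library size alone 60% of genes were called, 37.9% higher and 22.1% lower, so that 63.2% of the calls were higher. The labels name no separate cultures, so every p-value is relative to the spread of duplicate libraries, and that spread may be technical. Of 15 markers of the cerebellar granule lineage and medulloblastoma, 12 reached 1 CPM in at least 1 library, and ATOH1, BARHL1 and NEUROD1 were near 0. Of 5 immune cell markers, PTPRC, AIF1 and CD3E were below 0.3 CPM in every library, while CD68 stood at 57.50 and 58.16 CPM with the PELP1 shRNA, against 58.57 and 57.71 CPM with the control shRNA, and CD14 reached at most 1.89 CPM. Endothelial markers summed to 9.08 and 9.03 CPM with the PELP1 shRNA, against 27.47 and 26.70 CPM with the control shRNA, with 4 of 5 at 1 CPM or more in a library and CDH5 below it in all. Their lower sum came mainly from TEK (3.12 and 3.45 CPM, against 23.53 and 23.67 CPM). CDH5 was also called lower with the PELP1 shRNA (log2 fold change −1.39, edgeR FDR = 0.00701), while PECAM1 and VWF rose and KDR did not pass. The median log2 fold change of the 5 was 0.36. Fibroblast markers, of which 5 of 6 reached 1 CPM, summed to 4016 and 3730 CPM, against 4661 and 4963 CPM. Their lower sum came mainly from COL1A2 (139.0 and 124.8 CPM, against 1467 and 1523 CPM), while COL1A1, DCN and LUM rose and COL3A1 and PDGFRB fell. The part of these markers in the synthetase results was not tested.

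Cytosolic synthetase transcripts were mostly a little lower with the PELP1 shRNA. Of 20 genes, 13 fell and 2 rose, while 5 missed the threshold. The share that fell was 65%, against 29.5% of all genes tested and 32.5% when only genes of at least 5 CPM in 2 libraries were tested. The median log2 fold change, PELP1 shRNA over control shRNA, was −0.15, against 0.0022 for all genes tested. In 14 of the 20 genes both PELP1 shRNA libraries were below both control libraries, an order seen in 38.7% of all genes tested. In 2 genes both were above, against 39% of all genes tested, and in 77.7% of all genes tested the groups did not overlap in either direction. In bulk RNA, fewer cells that express a gene and less RNA per cell cannot be told apart.

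The 16 mitochondrial synthetase genes were split. Here 5 fell and 4 rose, while 7 missed the threshold, so 31.2% fell and 25% rose, near the shares of all genes tested. Their median log2 fold change was −0.0277, and it was above 0 with upper-quartile factors (0.0254) and with library size alone (0.0624). Under the same scalings the cytosolic median stayed below 0, at −0.0977 and −0.0608. The medians of all genes tested then stood at 0.0553 and 0.0922.

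**Figure D1:**
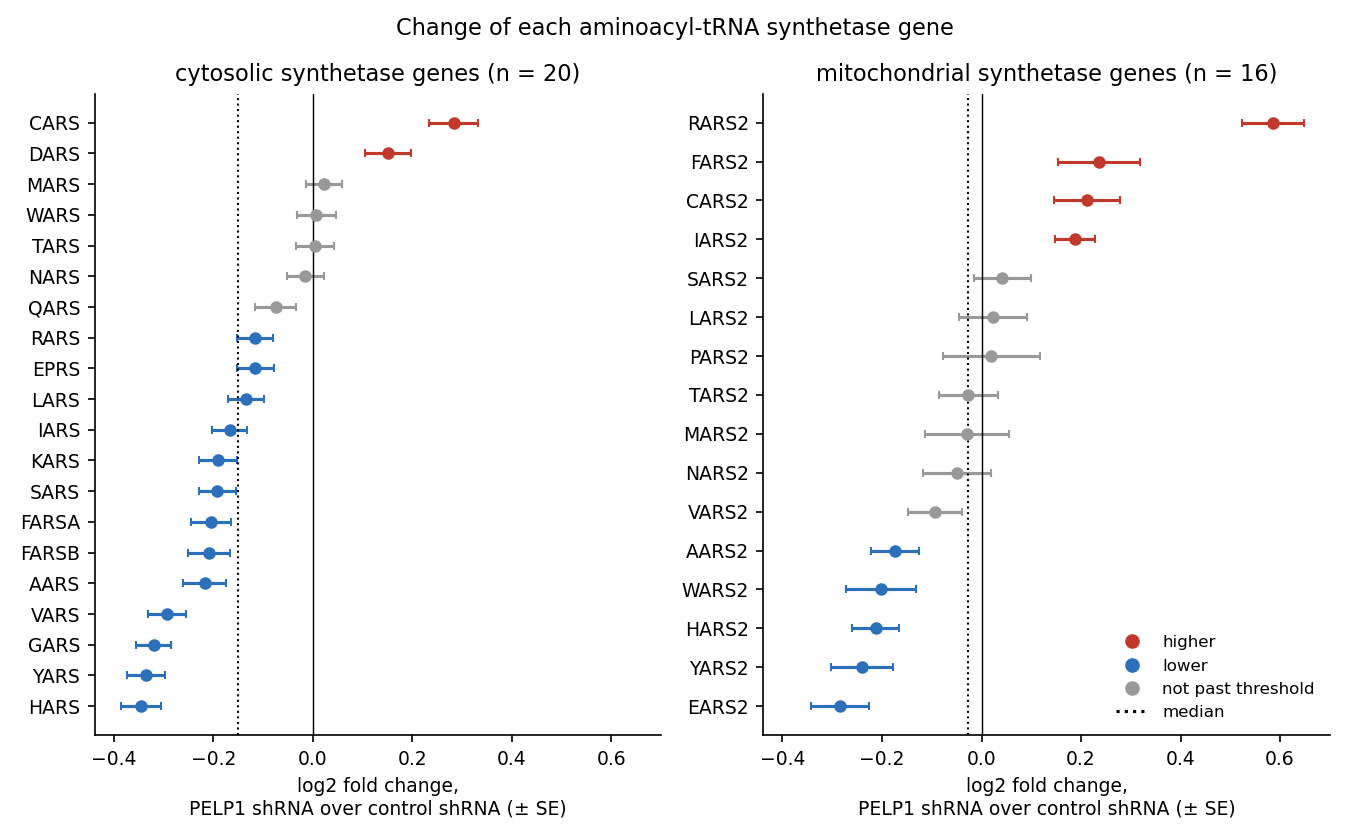
Log2 fold change (x axis, PELP1 shRNA over control shRNA, ± SE) of each gene (y axis), for 20 cytosolic synthetase genes at left and 16 mitochondrial ones at right, with the median of each panel as a dotted line. On the left 13 points are called lower and 2 higher, and on the right 5 are lower and 4 higher, with RARS2 farthest from 0 at 0.59.

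Every change was small. The largest fall was to 78.7% of control and the largest rise was to 150% of control. None of the 36 genes passed when tested against a 1.5-fold change (edgeR's glmTreat, 0 also at an unadjusted p under 0.05), although 9.63% of all genes tested did. Calls rest on a biological variation of 2.99% estimated from duplicate libraries. With an assumed variation of 10% in its place, 1 gene, RARS2, passed, against 29.1% of all genes tested.

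HARS, the histidyl-tRNA synthetase gene on the minus strand of chromosome 5 (140052620 to 140071122 in hg19), fell the most. It stood at 146.2 and 144.8 CPM in PELP1 shRNA libraries, against 184.5 and 185.3 CPM in control libraries. The log2 fold change was −0.35 ± 0.04 (SE, edgeR FDR = 5.72e-11). Antisense exons, mostly of WDR55, cover 1198 exonic bases of HARS, and reads there cannot be assigned to 1 gene unless strand was used. In all, 19 of the 36 genes have some antisense exon overlap.

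YARS, for tyrosine, had 196.1 and 195.3 CPM with the PELP1 shRNA, against 249.5 and 244.5 CPM with the control shRNA (log2 fold change −0.34 ± 0.04, SE, edgeR FDR = 2.24e-11). GARS, the glycyl enzyme of both compartments, which is mutated in a form of Charcot-Marie-Tooth neuropathy, had 306.6 and 310.6 CPM, against 383.5 and 387.1 CPM in control libraries (−0.32 ± 0.04, SE, edgeR FDR = 1e-11). VARS, for valine, had 340.3 and 319.3 CPM, against 390.4 and 417.8 CPM (−0.29 ± 0.04, SE, edgeR FDR = 9.57e-10). In all of these genes the groups were apart, and the replicates lay closer to each other than to the other group.

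A second set of falls was smaller. AARS, FARSB, FARSA, SARS and KARS were at 86% to 87.6% of control. FARSA and FARSB encode the subunits of 1 enzyme, the cytosolic phenylalanyl-tRNA synthetase, and they fell by nearly the same amount (−0.21 ± 0.04 for FARSA and −0.21 ± 0.04 for FARSB, log2 fold change with SE). FARSA had 212.3 and 202.9 CPM, against 232.6 and 246.0 CPM in control libraries. FARSB had 131.5 and 133.1 CPM, against 156.8 and 149.0 CPM. KARS, the lysyl enzyme of both compartments, had 234.1 and 247.0 CPM, against 270.7 and 278.5 CPM.

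IARS, LARS, EPRS and RARS were at 89.1% to 92.3% of control. EPRS encodes a protein that joins the glutamyl and the prolyl enzymes in 1 chain. Its call (log2 fold change −0.12, edgeR FDR = 0.00584) was lost without control replicate 1, without PELP1 shRNA replicate 1, with upper-quartile factors and with library size alone. RARS (−0.12, edgeR FDR = 0.00479) was lost with the same 2 scalings, and IARS and LARS with library size alone.

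CARS and DARS were the 2 cytosolic genes that rose. CARS, for cysteine, on the minus strand of chromosome 11 (3022152 to 3078843 in hg19), had 98.76 and 98.04 CPM with the PELP1 shRNA, against 85.23 and 76.68 CPM with the control shRNA. The log2 fold change was 0.28 ± 0.05 (SE, edgeR FDR = 1.62e-06). DARS, for aspartate, had 118.0 and 114.4 CPM, against 108.8 and 100.8 CPM (0.15 ± 0.05, SE, edgeR FDR = 0.00414). DARS missed the threshold without control replicate 2 (0.0963, edgeR adjusted p = 0.13) and without PELP1 shRNA replicate 1 (0.13, edgeR adjusted p = 0.0767).

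MARS, WARS, TARS, NARS and QARS did not pass. WARS, for tryptophan, is also known as an interferon-induced gene. It stood at 218.8 and 228.1 CPM with the PELP1 shRNA, against 222.1 and 222.5 CPM with the control shRNA, and these ranges overlapped (log2 fold change 0.0072, edgeR FDR = 0.887). In the same libraries 18 of 24 interferon-stimulated genes fell and 1 rose (75% and 4.17%, against 29.5% and 28.6% of all genes tested), among them OASL (−2.25) and IFIT2 (−1.80), with GBP2 at 1.24. MARS, for methionine, had 299.7 and 289.1 CPM, against 290.0 and 289.9 CPM. MARS shares 355 exonic bases with DDIT3 and 519 with ARHGAP9 on the other strand. MARS, TARS and WARS were called higher with library size alone.

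**Figure D2:**
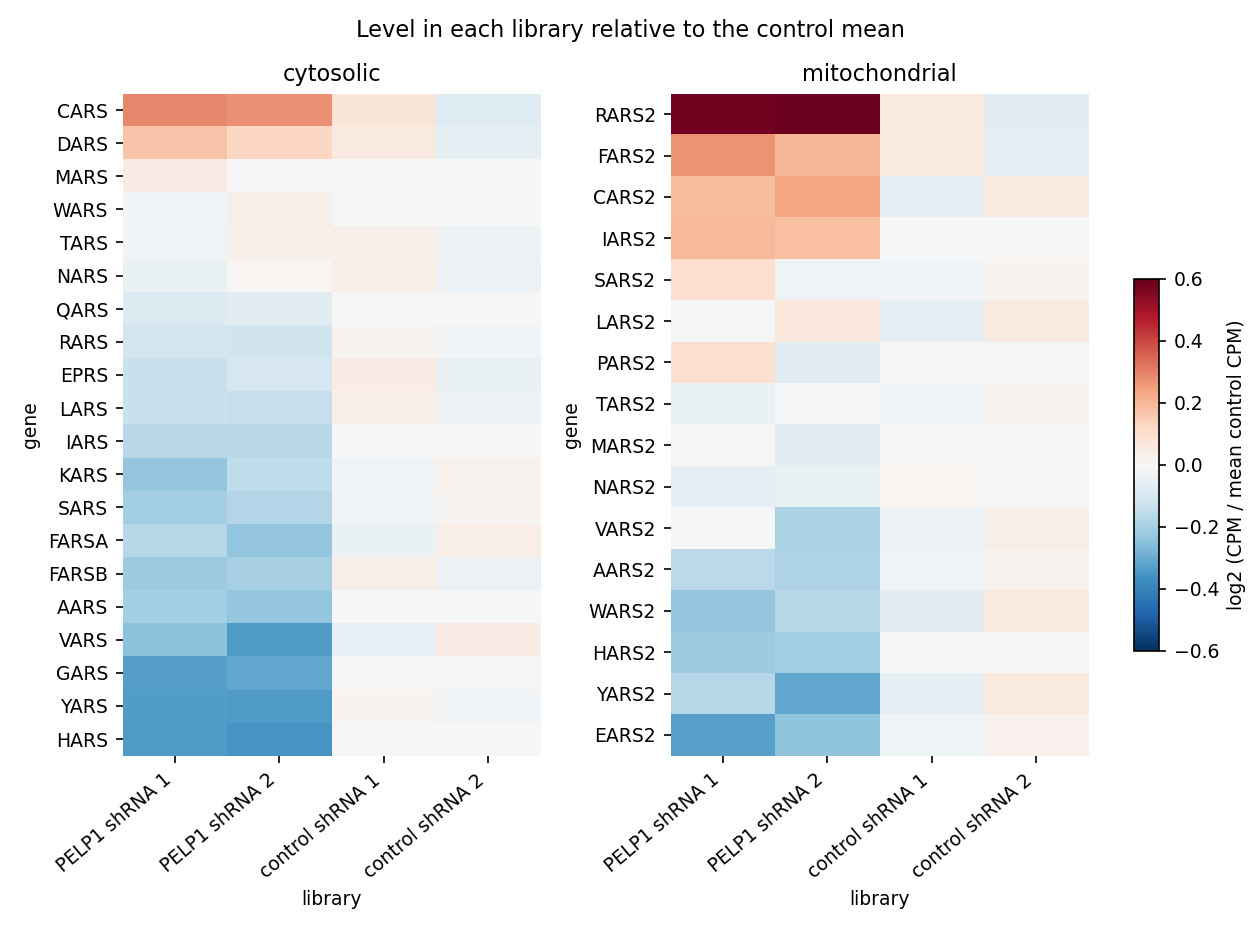
Each row is a gene and each column a library, PELP1 shRNA libraries at left of control libraries, and colour is the log2 ratio of the TMM-scaled CPM to the mean of the control libraries. The 2 PELP1 shRNA columns are blue in most cytosolic rows, and RARS2, CARS and FARS2 are the reddest rows.

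RARS2 had the largest change of the 36 genes. It encodes the mitochondrial arginyl-tRNA synthetase, which is mutated in a form of pontocerebellar hypoplasia, and lies on the minus strand of chromosome 6 (88223177 to 88299746 in hg19). It stood at 52.99 and 53.34 CPM in PELP1 shRNA libraries, against 36.92 and 33.97 CPM in control libraries. The log2 fold change was 0.59 ± 0.06 (SE, edgeR FDR = 1.44e-12). Its value ran from 0.526 to 0.676 over 15 alternative settings, and with an assumed biological variation of 10% the adjusted p was 0.000796 (edgeR likelihood ratio test). With an assumed 20% it was 0.265, and 8.85% of all genes tested passed at that setting.

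RARS2 starts 148 bases from ORC3, a subunit of the origin recognition complex, which is read in the opposite direction. The bases between their RefSeq starts (GRCh38.p14, chr6:87589988-87590134, plus strand, the ORC3 side at the right) are shown because both genes rose. Capitals mark CCGGAA on either strand, the core letters of sites for ETS family factors, which cannot overlap TGATGCAA. Windows of 300 bases hold these letters in 22.9% of protein-coding genes, in 11 of 16 cytosolic genes and in 7 of 14 mitochondrial genes. The 84 bases between the starts of HARS and HARS2, which both fell, hold them 3 times. The part of these letters in any change was not tested.
RARS2 and ORC3: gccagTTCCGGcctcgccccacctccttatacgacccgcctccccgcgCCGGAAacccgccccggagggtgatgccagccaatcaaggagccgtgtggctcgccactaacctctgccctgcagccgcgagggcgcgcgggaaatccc
ORC3 had 70.82 and 74.92 CPM with the PELP1 shRNA, against 62.17 and 60.40 CPM with the control shRNA (log2 fold change 0.25 ± 0.05, SE, edgeR FDR = 5.18e-05). ORC3 is no synthetase and was looked at after the values of RARS2 were seen. Of the 30 genes with a promoter window, 8 lie in 7 such divergent pairs whose other gene was counted, HARS and HARS2 being partners of each other. The 6 genes without a window could not be searched. Both genes fell in HARS and HARS2, with starts 85 bases apart, and in KARS and TERF2IP, with starts 108 bases apart (TERF2IP −0.49 ± 0.05, SE, edgeR FDR = 3.47e-12). EARS2 fell while UBFD1, whose start is 377 bases away, rose (0.26 ± 0.05, SE, edgeR FDR = 1.24e-06). The neighbours of WARS, FARS2 and SARS2, which are WDR25, LYRM4 and MRPS12, did not pass. These neighbours too were looked at with the values known.

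Besides RARS2, the mitochondrial genes that rose were IARS2, FARS2 and CARS2. IARS2, for isoleucine and the highest of the 16 in CPM, had 178.9 and 177.1 CPM with the PELP1 shRNA, against 156.7 and 155.8 CPM with the control shRNA (log2 fold change 0.19 ± 0.04, SE, edgeR FDR = 6.75e-05). FARS2, for phenylalanine, had 22.87 and 21.77 CPM, against 19.72 and 18.23 CPM (0.24 ± 0.08, SE, edgeR FDR = 0.012). CARS2, for cysteine, had 37.78 and 39.08 CPM, against 31.88 and 34.36 CPM (0.21 ± 0.07, SE, edgeR FDR = 0.00484). All 3 had separate groups.

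The calls of CARS2 and FARS2 were lost when either of 2 libraries was left out, with the direction kept. CARS2 missed the threshold without control replicate 1 (log2 fold change 0.16, edgeR adjusted p = 0.082) and without PELP1 shRNA replicate 2 (0.19, adjusted p = 0.0609). FARS2 missed it without control replicate 2 (0.18, edgeR adjusted p = 0.137) and without PELP1 shRNA replicate 1 (0.20, adjusted p = 0.102). With DESeq2 on all 4 libraries the changes were of the same size, 0.21 for CARS2 (adjusted p = 0.061) and 0.23 for FARS2 (adjusted p = 0.119).

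The mitochondrial genes that fell were EARS2, YARS2, HARS2, WARS2 and AARS2, at 82.1% to 88.7% of control. EARS2 charges glutamate, and in mitochondria it also places glutamate on the tRNA for glutamine, where an amidotransferase then converts it. It had 45.67 and 48.44 CPM with the PELP1 shRNA, against 56.22 and 58.30 CPM with the control shRNA (log2 fold change −0.28 ± 0.06, SE, edgeR FDR = 2.42e-05). HARS2, mutated in Perrault syndrome of hearing loss and ovarian failure, had 86.27 and 87.04 CPM, against 100.7 and 100.1 CPM (−0.21 ± 0.05, SE, edgeR FDR = 9.68e-05). WARS2 (−0.20, edgeR FDR = 0.0114) missed the threshold without control replicate 2, without PELP1 shRNA replicate 1, with upper-quartile factors, with library size alone and with DESeq2. YARS2 (−0.24, edgeR FDR = 0.000771) missed it without PELP1 shRNA replicate 2, and AARS2 (−0.17, edgeR FDR = 0.00176) with library size alone.

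LARS2, MARS2, NARS2, PARS2, SARS2, TARS2 and VARS2 did not pass, with log2 fold changes between −0.0933 (VARS2) and 0.0422 (SARS2). SARS2 and VARS2 share 1492 and 4073 exonic bases with other genes on the same strand, so their counts are partial if such reads were set aside as ambiguous. VARS2 was called lower without PELP1 shRNA replicate 1, and SARS2 higher with library size alone. PARS2, for proline, had the fewest reads, with a lowest count of 311 in a library.

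Synthetases of the same amino acid could be paired across the compartments 17 times, with EPRS in 2 pairs and FARS2 in 2 pairs. In 4 pairs, for alanine, glutamate, histidine and tyrosine, both genes fell. In 1 pair, for cysteine, both rose. In 4 pairs the cytosolic gene fell and the mitochondrial gene rose, namely isoleucine, arginine and the 2 pairs of phenylalanine. In a further 4 pairs, for leucine, proline, serine and valine, the cytosolic gene was lower and the mitochondrial gene did not pass. For tryptophan the mitochondrial gene alone passed, being lower, and for asparagine, methionine and threonine neither did.

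The ratio of mitochondrial to cytosolic counts within a library does not depend on scaling. For arginine there were 16.4 and 16.6 RARS2 counts per 100 RARS counts in PELP1 shRNA libraries, against 10.5 and 9.87 in control libraries. For isoleucine there were 47.0 and 46.6 IARS2 counts per 100 IARS counts, against 36.6 and 36.6. For phenylalanine there were 10.8 and 10.7 FARS2 counts per 100 FARSA counts, against 8.48 and 7.41. In each of these the PELP1 shRNA libraries were both higher. For tryptophan the order was the other way, with 13 and 13 WARS2 counts per 100 WARS counts in PELP1 shRNA libraries, against 14.4 and 15.7 in control libraries.

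Over the 17 pairs the log2 ratio of mitochondrial to cytosolic counts was higher with the PELP1 shRNA in 11 and lower in 6, with a median difference of 0.13. The groups did not overlap in 9 of the 11 and in 3 of the 6. For levels of single genes, the groups did not overlap in 77.7% of all genes tested (39% higher and 38.7% lower). No such share was computed for ratios of 2 genes. The differences in these ratios were not tested.

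**Figure D3:**
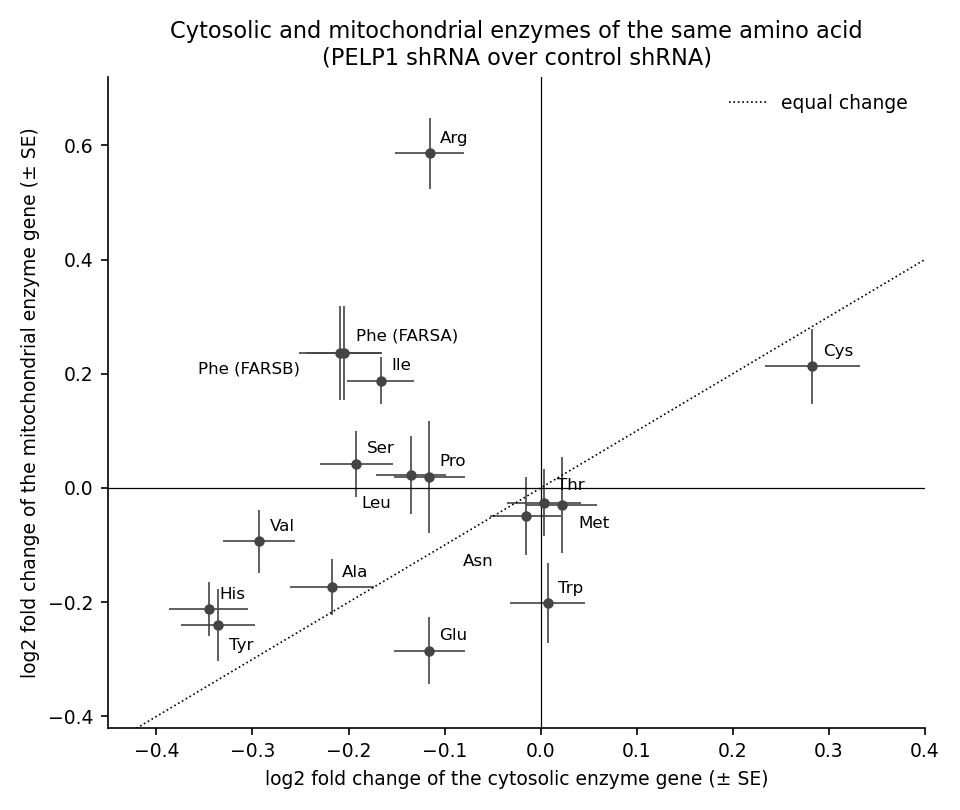
Each point is an amino acid, with the log2 fold change of its cytosolic enzyme gene on the x axis and of its mitochondrial enzyme gene on the y axis (PELP1 shRNA over control shRNA, ± SE), and the dotted line marks equal change. Arginine, isoleucine and both phenylalanine points lie left of 0 and above 0, while cysteine lies alone at the upper right.

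Summed over the 20 cytosolic genes the level was 4682 and 4692 CPM in PELP1 shRNA libraries, against 5194 and 5152 CPM in control libraries, or 90.6% of control. The 16 mitochondrial genes summed to 853.9 and 839.0 CPM, against 841.0 and 856.9 CPM, or 99.7% of control, and these ranges overlapped. These 16 genes therefore took 15.42% (95% exact binomial interval 15.25% to 15.60%) and 15.17% (14.99% to 15.35%) of synthetase counts in PELP1 shRNA libraries. In control libraries they took 13.93% (13.75% to 14.12%) and 14.26% (14.09% to 14.44%). Intervals cover counting error only. Without RARS2 the shares were 14.61% and 14.34%, against 13.40% and 13.77%, so the PELP1 shRNA libraries remained higher. GARS and KARS, which encode both forms, are counted as cytosolic throughout. Together they had 540.8 and 557.6 CPM with the PELP1 shRNA, against 654.2 and 665.5 CPM with the control shRNA. The mitochondrial sum and share both depend on that assignment, and the part of mitochondrial forms in those counts is not known.

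**Figure D4:**
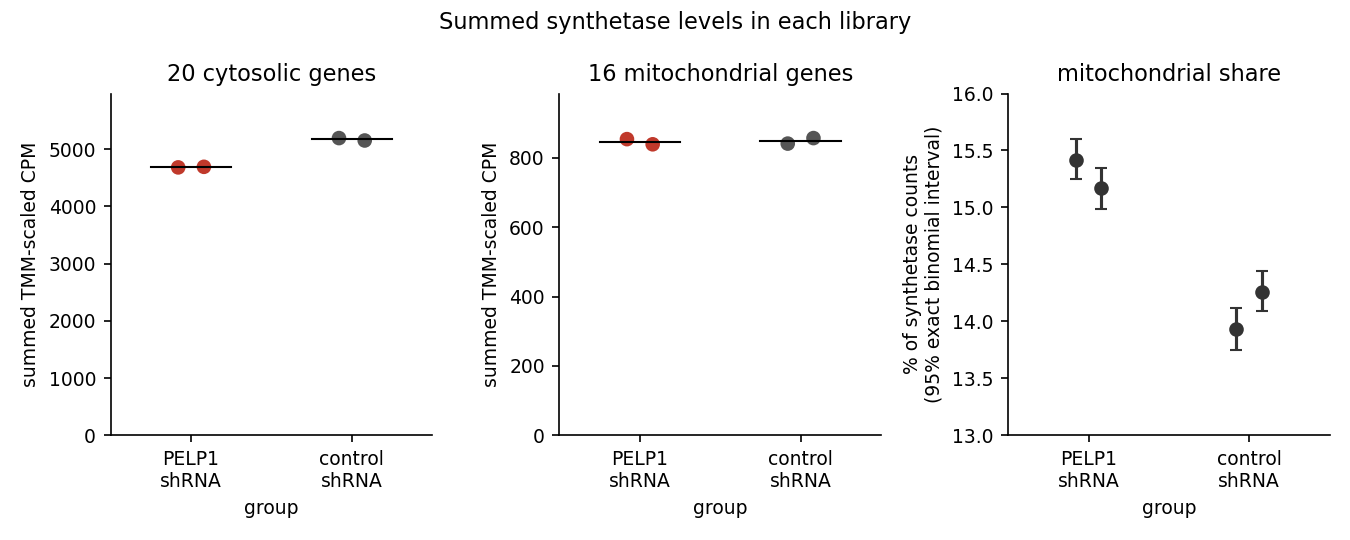
Summed TMM-scaled CPM of the cytosolic (left) and mitochondrial (middle) genes in each library, with group means as lines, and the mitochondrial percentage of synthetase counts (right, axis from 13% to 16%, bars are 95% exact binomial intervals). The cytosolic sum is 4682 and 4692 CPM in PELP1 shRNA libraries and 5194 and 5152 CPM in control libraries, while the mitochondrial sums overlap. GARS and KARS are counted as cytosolic only.

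Per length, cytosolic messages were more abundant than mitochondrial ones. On the scale of CPM per kilobase of the canonical transcript, the median was 82.5 over the 20 cytosolic genes and 17.2 over the 16 mitochondrial genes with the PELP1 shRNA, against 95.7 and 16.9 with the control shRNA. With the PELP1 shRNA the cytosolic levels ran from 19.6 (FARSB) to 152 (RARS) and the mitochondrial ones from 5.70 (PARS2) to 50.4 (IARS2). These levels use 1 transcript length per gene and inherit its uncertainty.

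Within the cytosolic set the genes were grouped by what is known of their proteins. Of the 8 synthetases of the multisynthetase complex, 5 fell and 1, DARS, rose (62.5% and 12.5%, median log2 fold change −0.12). Of the 12 others, 8 fell and 1, CARS, rose (66.7% and 8.33%, median −0.21). Among all genes tested 29.5% fell and 28.6% rose. With library size alone, 1 complex gene was called lower and 2 higher, against 22.1% lower and 37.9% higher among all genes tested. The scaffold genes did not move together. AIMP1 fell, with 37.72 and 40.02 CPM in PELP1 shRNA libraries, against 52.33 and 47.69 CPM in control libraries (−0.36 ± 0.06, SE, edgeR FDR = 9.9e-07). EEF1E1 rose (0.20 ± 0.08, SE, edgeR FDR = 0.0297), and AIMP2 stood at 0.12 (edgeR FDR = 0.0709).

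Synthetases also fall into 2 structural classes with unrelated catalytic folds. EPRS is counted in class I by its glutamyl part, although its prolyl part, like PARS2, is of class II. Of 19 class I genes, 9 fell and 4 rose, with a median log2 fold change of −0.0933. Of 17 class II genes, 9 fell and 2 rose, with a median of −0.17. That was 47.4% lower and 21.1% higher in class I, and 52.9% lower and 11.8% higher in class II, against 29.5% lower and 28.6% higher among all genes tested. With library size alone, 4 class I genes were lower and 6 higher, and 8 class II genes were lower and 4 higher. Of all genes tested 22.1% were then lower and 37.9% higher.

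ATF4 and several of its known targets outside the synthetases were lower in the same libraries. Of 30 genes of the amino acid and integrated stress response, 20 fell and 2 rose (median log2 fold change −0.24). These were 66.7% and 6.67% of the list, against 29.5% and 28.6% of all genes tested. SLC7A11, the cystine transporter subunit, had 8.55 and 8.38 CPM with the PELP1 shRNA, against 18.87 and 18.62 CPM with the control shRNA (−1.15 ± 0.10, SE, edgeR FDR = 6.61e-16). PPP1R15A, the phosphatase subunit that reverses eIF2α phosphorylation, stood at −1.01 and DDIT4, an mTORC1 inhibitor, at 1.09. ATF4 itself (−0.22 ± 0.04, SE, edgeR FDR = 8.22e-06) and ASNS, the asparagine synthetase gene (−0.39 ± 0.07, SE, edgeR FDR = 6.61e-07), both fell. These 2 genes are named after their values were seen.

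Cytosolic synthetase genes known to respond to ATF4 and the other cytosolic ones were counted apart, and the difference was not tested. Of 13 such genes, 8 fell and 1 rose (61.5% and 7.69%), with a median log2 fold change of −0.13. Of the 7 others, 5 fell and 1 rose (71.4% and 14.3%), with a median of −0.19. Among all genes tested 29.5% fell and 28.6% rose. Without control replicate 2 the medians were −0.1656 and −0.1634, so their order turned. With library size alone, 5 of the 13 were lower and 4 higher, and of the 7 others 4 were lower and 1 higher. Of all genes tested 22.1% were then lower and 37.9% higher. Among the 6 genes with TGATGCAA in the window, shown above, AARS and IARS fell, CARS rose, and MARS, NARS and TARS missed the threshold. The median of these 6 was −0.0060, and 33.3% of them fell and 16.7% rose, against 29.5% and 28.6% of all genes tested. Among the 10 cytosolic genes with a window but without the letters, 8 fell, 0 rose and 2 missed the threshold, around a median of −0.19. That was 80% lower and 0% higher, against the same shares of all genes tested. DARS, which rose, and LARS, VARS and YARS, which fell, had no window and are in neither group. In those 10 genes 0 were higher at an unadjusted p under 0.05 as well, 0 rose with DESeq2 (18% of all genes tested) or limma-voom (28.2% of all genes tested), and 1, WARS, rose with library size alone. With that scaling, of the 6 genes with the letters 3 were higher and 1 was lower, against 37.9% and 22.1% of all genes tested. The median of these 6 genes was 0.0839 then, 0.0471 with upper-quartile factors, and between −0.0379 and 0.0198 when single libraries were left out. The difference between these groups was not tested, and the absence of the letters from a window of 300 bases says nothing of ATF4 binding elsewhere.

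**Figure D5:**
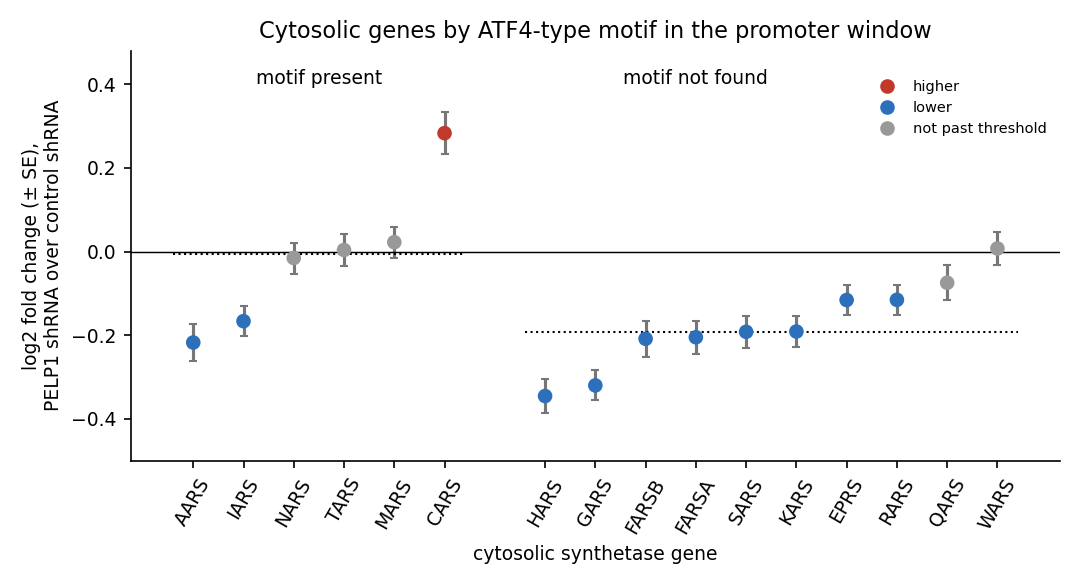
Log2 fold change (y axis, PELP1 shRNA over control shRNA, ± SE) of the 16 cytosolic synthetase genes (x axis) with a promoter window, 6 with the letters of the ATF4-type motif at left and 10 without at right, and the median of each as a dotted line. The left median lies at −0.0060 and the right one at −0.19.

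Partners of tRNA charging moved in both directions. Of 13 such genes, 6 fell and 3 rose, with a median log2 fold change of −0.0838, or 46.2% lower and 23.1% higher, against 29.5% and 28.6% of all genes tested. QRSL1, a subunit of the mitochondrial amidotransferase that acts after EARS2, had 46.27 and 43.21 CPM with the PELP1 shRNA, against 33.67 and 34.20 CPM with the control shRNA (0.40 ± 0.06, SE, edgeR FDR = 2.37e-07). SEPSECS, which makes selenocysteine on its tRNA, rose by 0.31 ± 0.09 (SE, edgeR FDR = 0.00191). With library size alone 2 of the 13 were lower and 4 higher, against 22.1% lower and 37.9% higher among all genes tested.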

How the data were processed

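Gene expression was measured in 4 Daoy libraries, 2 per shRNA group, grouped by their titles. The deposited files hold whole-number read counts for each gene symbol, with no normalisation. The submitters' processing notes name TopHat2 2.0.8b, HTSeq and the hg19 build. How HTSeq treated strand, and with which annotation, is not known from the labels. Alignments that were not unique made up 29.38% to 30.82% of each file, and the 5 rows that name no gene were left out of library sizes. Reads shared with near-identical copies are lost there, and 11 of the 36 genes have an annotated pseudogene of the same name.

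Counts were tested with edgeR 4.0.16 in R 4.3.3 (robust quasi-likelihood F test, TMM factors from 0.967 to 1.033, filterByExpr, intercept and group), two-sided, with Benjamini-Hochberg adjustment over all 14972 genes tested and a threshold of 0.05. All 36 genes passed the low-count filter. The standard error (SE) is the size of the log2 fold change divided by the square root of F. The script was tested on simulated data. Replicates differed by more than counting noise (chi-square per degree of freedom 2.437 and 2.545, against 59.25 to 65.51 between groups). Coordinates and exon overlaps in hg19 came from GENCODE v44lift37, and promoter windows from RefSeq (GRCh38.p14). Alternatives used limma 3.58.1 (voom) and DESeq2 1.42.0, other scalings and filters, left-out libraries, a replicate block, glmTreat and assumed biological variations.

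The genes, gene lists and motifs were chosen with earlier results of these data known. Besides TGATGCAA and CCGGAA, the E-box letters CACGTG were searched for in the same windows. They were found in 1 of 16 cytosolic and 3 of 14 mitochondrial windows, against 8.88% of windows of protein-coding genes. The part of the E-box letters in any change was not tested. Named genes outside the 36 are PELP1 and for each list at most 3 genes, those past the threshold that changed most among genes averaging at least 1 CPM, unless said otherwise.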

Additional observations from a re-analysis of the deposited data

How the results depend on the processing

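Over 15 alternatives no gene of the 36 was called in the opposite direction. Left-out libraries gave 12 to 13 cytosolic genes lower, 1 to 2 higher and medians of −0.1645 to −0.1351, and 4 to 5 mitochondrial genes lower, 3 higher and medians of −0.0554 to −0.0111. All genes then gave 3612 to 3726 higher and 3804 to 4031 lower. With library size alone 5 cytosolic genes were higher and 3 mitochondrial genes lower, and the medians were −0.0608 and 0.0624. Of all genes tested 37.9% were then higher and 22.1% lower. With upper-quartile factors the medians were −0.0977 and 0.0254. The cytosolic median was −0.1433 with no low-count filter and −0.1348 with genes of at least 5 CPM. The summed cytosolic level was 4774 CPM with the PELP1 shRNA and 5079 CPM with the control shRNA under upper-quartile factors, and 4835 and 5014 CPM under library size alone. The mitochondrial sums were 862.2 and 833.5 CPM, and 873.3 and 822.9 CPM. DESeq2 called 2 mitochondrial genes higher. Against a 1.5-fold change, 0 of the 36 genes passed, with 709 genes higher and 733 lower in all. With an assumed variation of 10%, 1 mitochondrial gene was higher and 0 others passed (5 at an unadjusted p under 0.05), with 2187 higher and 2176 lower in all. With 20%, 0 passed (1 at an unadjusted p under 0.05), with 685 higher and 640 lower in all. The replicate numbers did not pair the libraries (correlation of deviations 0.0109), and the replicate block left the calls of the 36 genes the same (13 cytosolic genes lower and 2 higher), with 4010 genes higher and 4151 lower in all. The causes of these differences were not tested. Precision fell with depth. SEs ran to 0.0980 in PARS2, with a lowest count of 311, against 0.0352 in IARS. In the 7 mitochondrial genes that missed the threshold they were 0.0551 (VARS2) or more, against at most 0.0498 (CARS) in cytosolic genes. A change of the size called in EPRS (−0.12) would not have passed in any of those 7 genes. Shares called in the 2 classes were thus taken at unlike precision, and the part of this in their difference was not tested.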

Other observations

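Genes of tRNA maturation and export, which act before the synthetases, moved in both directions. Of 41, 15 fell and 11 rose, or 36.6% and 26.8%, near the 29.5% and 28.6% of all genes tested (median log2 fold change −0.0637, and 0.0264 with library size alone). YRDC, which takes part in making the threonylcarbamoyl mark beside the anticodon, had 51.63 and 53.66 CPM with the PELP1 shRNA, against 90.24 and 92.50 CPM with the control shRNA (−0.80 ± 0.05, SE, edgeR FDR = 4.53e-21). RPP25, a protein of RNase P, had 8.42 and 8.74 CPM, against 3.47 and 4.16 CPM (1.16 ± 0.14, SE, edgeR FDR = 7.82e-11). RG9MTD1, now named TRMT10C and a part of mitochondrial RNase P, had 90.78 and 88.35 CPM, against 56.39 and 53.40 CPM (0.71 ± 0.05, SE, edgeR FDR = 1.15e-18). The other listed RNase P genes, named after their values were seen, did not all rise. For the mitochondrial enzyme, KIAA0391 fell (−0.21, edgeR FDR = 0.000394) and HSD17B10 did not pass. For the nuclear one, POP1 (−0.63, edgeR FDR = 6.81e-13) and RPP14 (−0.15, edgeR FDR = 0.0345) fell. RPP40 rose (0.29, edgeR FDR = 0.000385), and RPP30, RPP38, POP4, POP5 and POP7 did not pass. XPOT, the exporter of tRNA from the nucleus, chosen after its values were seen, rose by 0.40 ± 0.04 (SE, edgeR FDR = 9.06e-14).

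Of 11 factors of mitochondrial translation, 4 rose and 3 fell (36.4% and 27.3%, against 28.6% and 29.5% of all genes tested). The initiation factor genes MTIF3 (0.62 ± 0.08, SE) and MTIF2 (0.31 ± 0.05, SE) and the elongation factor gene TSFM (0.33 ± 0.06, SE) rose. C12orf65 rose as well (0.21 ± 0.09, SE). The 3 that fell were TUFM (−0.12 ± 0.04, SE) and GFM1 (−0.11 ± 0.04, SE), also elongation factor genes, and MRRF (−0.31 ± 0.07, SE). C12orf65, TUFM, GFM1 and MRRF are named after their values were seen. Of 11 genes of the MYC network, 2 fell and 4 rose (18.2% and 36.4%, against 29.5% and 28.6% of all genes tested). MYC, a transcription factor that acts on many genes of protein synthesis, had 44.54 and 45.90 CPM with the PELP1 shRNA, against 84.76 and 84.03 CPM with the control shRNA (−0.90 ± 0.05, SE, edgeR FDR = 7.09e-23). MXD4 and MXD3, which compete with MYC for MAX, stood at 0.41 and 0.35.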
